A study of Mus musculus with 6 samples.

Results

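The nuclear pore and its transport receptors were read here through 42 genes, chosen by symbol from the 49997 genes of the count table: 19 nucleoporins (symbols beginning Nup and ending in a number) and 23 transport receptors, made up of 6 importin alpha genes (Kpna), the importin beta gene Kpnb1, 7 further importins (Ipo), 3 transportins (Tnpo) and 6 exportins (Xpo). The rule reads the symbol alone, not the values. They were measured by bulk RNA-seq in haematopoietic stem cells of the long-term class, the rare marrow cells from which all blood lineages are renewed, sorted by flow cytometry from 4-month-old C57BL/6J mice. Cells with high Asrij gave 3 libraries and cells with low Asrij gave 3 libraries. Asrij is the protein encoded by Ociad1. The sample labels name no further allele or treatment in either group. The name of the count table carries the tag ArjKI, for both groups, without explaining it. The labels do not say how Asrij was read in the sort. Whether each library is a mouse of its own is not stated either, so the p-values below rest on a spread among libraries that may be technical.

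The nuclear pore complex is a ring-shaped channel through the nuclear envelope. Its scaffold is built from the outer rings, formed by the Y complex, and from the inner ring, and nucleoporins rich in phenylalanine-glycine repeats line the passage. Importins bind cargo in the cytoplasm and release it in the nucleus on meeting the GTP-bound form of the small GTPase Ran, while exportins bind cargo together with that form of Ran and release it in the cytoplasm. In dividing cells the pores have to be made for each round of division, and some nucleoporins also sit at kinetochores during mitosis.

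Levels below are CPM, the counts scaled to one common library size with TMM factors, which correct for differences in composition between libraries. Fold changes are Asrij high over Asrij low on the log2 scale with their SE, and adjusted p-values come from edgeR's quasi-likelihood test over all 21445 genes tested, with calls at 0.05. The Asrij high libraries held 62732782 to 72855125 counts and the Asrij low libraries 24707012 to 46240743, and the lowest count of a tested member was 90, for Nup35 in Asrij low replicate 3. Ociad1 had 86.9, 77.6 and 76.3 CPM in Asrij high, against 57.9, 50.3 and 46.7 CPM in Asrij low (log2 0.64 ± 0.16, adjusted p = 0.0115), and this call was lost with library totals as scaling (adjusted p = 0.133), with upper quartile factors (0.0834) and without Asrij high replicate 1 (0.0831). All 8 markers of haematopoietic stem cells given here (Procr, Hlf, Mecom, Fgd5, Slamf1, Kit, Hoxb5 and Ly6a) were counted in every library. All 8 were called lower in Asrij high, with log2 fold changes of -3.08 to -0.85 and a median of -2.35. Their summed levels were 389.5 to 591 CPM in Asrij high and 1060.0 to 1294 CPM in Asrij low. Kit fell least and held most of each sum. It had 373, 456 and 305 CPM in Asrij high and 729, 754 and 563 CPM in Asrij low. All 10 cycling markers were higher in Asrij high, with sums of 3621 to 5391 CPM in Asrij high and 687 to 968 CPM in Asrij low. Of 8 myeloid granule markers 4 (Mpo, Elane, Prtn3 and Ctsg) were called higher in Asrij high. Called lower in Asrij high were 6 of 7 B cell and plasma cell markers, 5 of 6 macrophage markers and 6 of 7 stromal markers. Of 5 megakaryocyte markers 0 were called, and of 4 tested T and NK cell markers 1 was called lower. Over all genes tested, 21.7% were called higher and 17.7% lower.

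Of the 41 members tested, 37 were called in either direction, where 39.4% of all genes and 56.1% of those with a mean of at least 10 CPM were. Every one of the 19 nucleoporin genes rose in Asrij high. All 19 tested were called higher and 0 lower, where 21.7% of all genes tested were called higher and 17.7% lower, and 38.0% of the tested genes with a mean of at least 10 CPM, as all 41 detected members had, were called higher and 18.2% lower. The median log2 fold change was 1.59, against -0.02 over all genes and 0.33 over those with at least 10 CPM. For all 19 the 3 Asrij high libraries lay above the 3 Asrij low libraries, as they did for 30.2% of all genes tested, and 15 of the 19 rose at least 2-fold, against 13.9% of all genes. Summed over the 19 genes, levels were 2966 to 3577 CPM in Asrij high and 1278 to 1623 CPM in Asrij low. In bulk RNA fewer cells of a type and less RNA per cell cannot be told apart, and the part of the cycling markers in this difference was not tested.

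**Figure D1:**
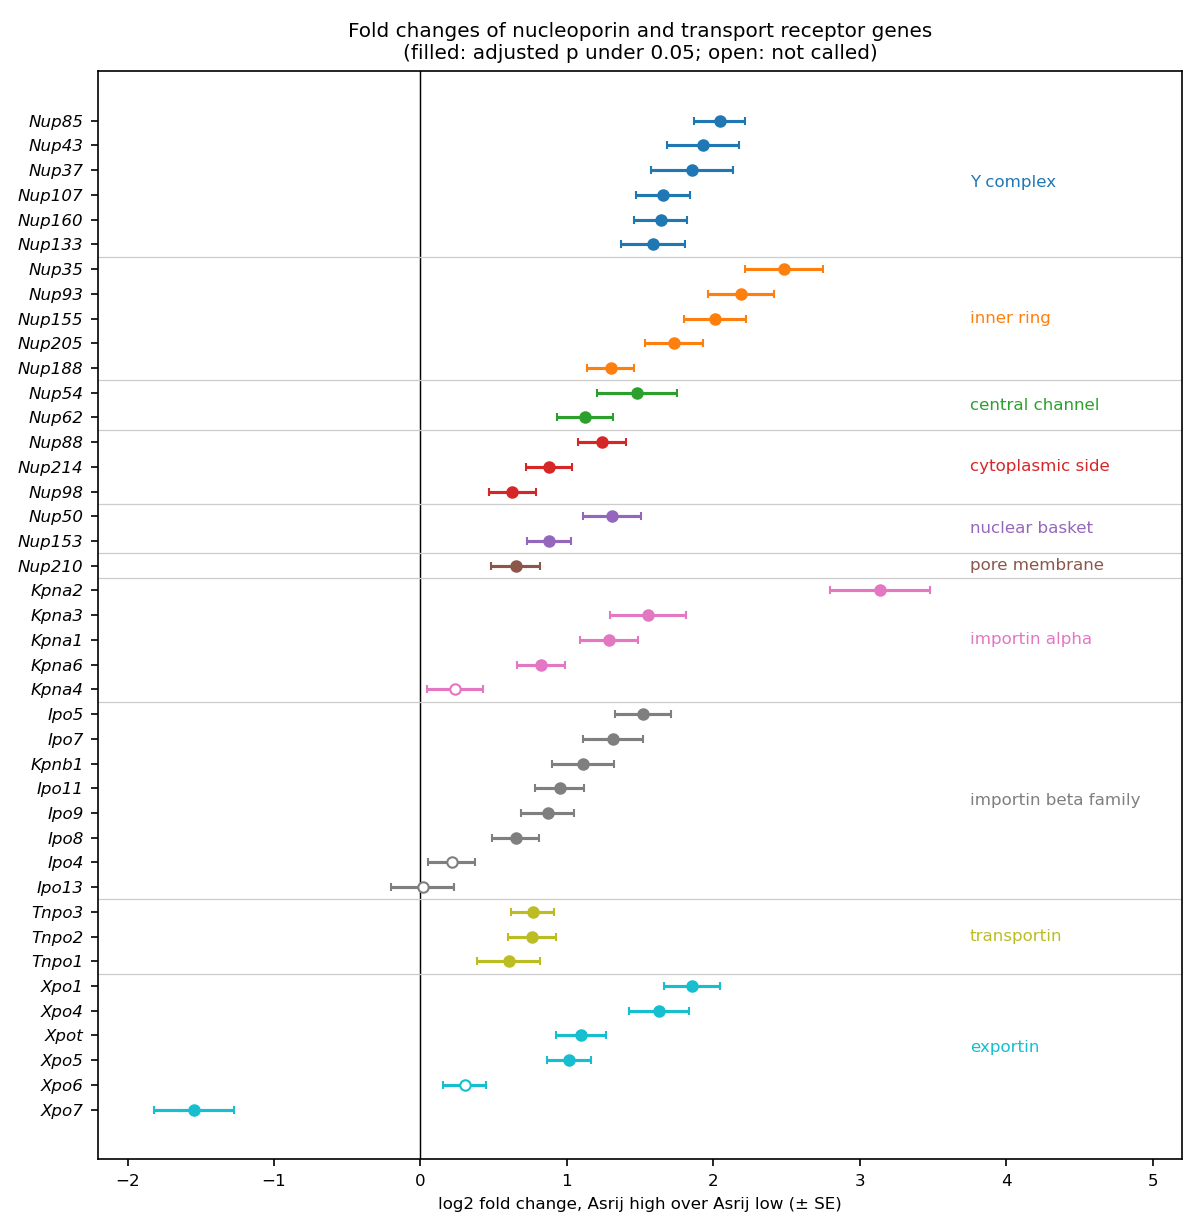
Log2 fold change of each tested gene, Asrij high over Asrij low (horizontal axis), with its SE as a bar, for 41 genes ordered by role (vertical axis); filled points passed the adjusted p threshold and open points did not. The 19 nucleoporins all lie right of 0, Kpna2 lies farthest right at 3.14 and Xpo7 alone lies clearly left of 0 at -1.55.

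The 6 Y complex genes found by the symbol rule, which encode arms and stem of the outer rings, rose by log2 1.59 to 2.04. The complex also holds Sec13, Seh1l and Ahctf1, which the rule does not reach and which were at 1.51, 0.77 and 1.63. Nup85 (chromosome 11, 115564432 to 115583924 in RefSeq on GRCm38.p6, the assembly behind mm10) had 137, 112 and 134 CPM in Asrij high, against 28.2, 35.8 and 29.1 CPM in Asrij low (log2 2.04 ± 0.17, adjusted p = 1.98e-04), and the groups did not overlap. Nup107 (chromosome 10, 117750621 to 117792736), whose product joins Nup133 at the stem of the complex, had 156, 109 and 152 CPM in Asrij high and 41.4, 48.4 and 42.6 CPM in Asrij low (log2 1.66 ± 0.18, adjusted p = 3.76e-04). Nup160 had 166, 122 and 181 CPM in Asrij high and 52.3, 49.2 and 49.0 CPM in Asrij low. Nup133 had 138, 110.5 and 131 CPM in Asrij high and 46.4, 50.5 and 29.3 CPM in Asrij low. The Asrij low values of Nup160 lay within 4 CPM of each other, and Asrij high replicate 2 was the lowest of its group for both genes. The small propeller proteins of the complex are encoded by Nup43 and Nup37, which were the least abundant of the 6. Nup43 had 36.6, 25.6 and 38.7 CPM in Asrij high and 7.48, 9.70 and 9.34 CPM in Asrij low. Nup37 had 26.4, 19.1 and 25.8 CPM in Asrij high and 4.87, 6.72 and 8.22 CPM in Asrij low. Their fold changes were 1.93 and 1.85.

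The 5 inner ring genes, whose products form the core of the scaffold and anchor the central channel, rose by 1.30 to 2.48. Nup35 (chromosome 2, 80638812 to 80660071), a membrane-binding member, showed the largest rise among nucleoporins, with 26.5, 19.8 and 26.0 CPM in Asrij high, against 4.98, 4.43 and 3.47 CPM in Asrij low (log2 2.48 ± 0.26, adjusted p = 3.25e-04). Nup93 (chromosome 8, 94214564 to 94328100), the hub that links the inner ring to the channel, had 163, 111 and 159 CPM in Asrij high, against 33.5, 37.2 and 24.0 CPM in Asrij low (log2 2.19 ± 0.23, adjusted p = 2.99e-04). Of the 10708 genes with at least 10 CPM, 2.25% had a larger fold change than Nup35 and 3.60% a larger one than Nup93. Nup155, another membrane-binding scaffold gene, had 243, 188 and 267 CPM in Asrij high and 53.4, 71.3 and 48.1 CPM in Asrij low (log2 2.01 ± 0.21, adjusted p = 3.09e-04). Both large solenoid proteins of the ring are encoded by related genes, Nup205 and Nup188. Nup205 had 278, 217 and 278 CPM in Asrij high and 78.1, 93.6 and 61.1 CPM in Asrij low. Nup188 had 281, 235 and 271 CPM in Asrij high and 105, 119 and 96.2 CPM in Asrij low. Their fold changes were 1.73 ± 0.20 and 1.30 ± 0.16.

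The 8 nucleoporins outside the scaffold had fold changes of 0.63 to 1.48, a range that meets that of the scaffold at Nup188. Nup62 and Nup54 encode repeat proteins of the central channel. Nup62 had 261, 214 and 239 CPM in Asrij high and 101, 136 and 90.0 CPM in Asrij low (log2 1.12 ± 0.19, adjusted p = 0.00211). Nup54 had 97.9, 63.3 and 95.5 CPM in Asrij high and 23.9, 43.3 and 24.9 CPM in Asrij low (log2 1.48 ± 0.27, adjusted p = 0.00304). Nup54 was higher in Asrij low replicate 2 than in the other 2 Asrij low libraries. On the cytoplasmic side, where messenger ribonucleoprotein is remodelled as it leaves the pore, Nup88 had 126, 101 and 121 CPM in Asrij high and 53.6, 50.8 and 43.0 CPM in Asrij low. Its partner Nup214 had 193, 177 and 192 CPM in Asrij high and 107, 111 and 88.0 CPM in Asrij low. Their fold changes were 1.24 and 0.88. Nup98, a mobile repeat protein found on both faces of the pore, had 202, 171 and 216 CPM in Asrij high and 116, 135 and 131 CPM in Asrij low (log2 0.63 ± 0.16, adjusted p = 0.0123). This was the smallest rise among nucleoporins, and its call was lost with library totals (log2 0.36, adjusted p = 0.0845), with upper quartile factors (0.36, adjusted p = 0.0809) and without Asrij high replicate 1 (0.57, adjusted p = 0.0643) or 3 (0.51, adjusted p = 0.0794).

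In the nuclear basket, the fibrous structure on the nuclear face, Nup50 had 278, 214 and 278 CPM in Asrij high and 87.1, 127 and 96.3 CPM in Asrij low (log2 1.31 ± 0.20, adjusted p = 0.00124). Nup153 had 177, 159.7 and 182 CPM in Asrij high and 89.3, 104 and 89.4 CPM in Asrij low (log2 0.88 ± 0.15, adjusted p = 0.00218). Nup50 binds importin alpha and helps release its cargo, and Nup153 docks import and export complexes at the basket. Nup210, the large glycoprotein that spans the pore membrane, was the most abundant by CPM of the 19 nucleoporins found by the symbol rule. It had 589, 595 and 519 CPM in Asrij high and 379, 391 and 315 CPM in Asrij low (log2 0.65 ± 0.17, adjusted p = 0.0126). Its rise was among the smallest, and it was not called with library totals (log2 0.38, adjusted p = 0.121), with upper quartile factors (0.38, adjusted p = 0.0618) or without Asrij high replicate 1 (0.58, adjusted p = 0.0521).

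Among the 19 nucleoporins, the 11 scaffold genes had a median fold change of 1.85, and all 11 rose at least 2-fold. The other 8 nucleoporins had a median near 1 on the log2 scale, with 4 rising at least 2-fold. The 10 further pore components listed below are in neither group and ranged from 0.72 to 2.23. Among them the Y complex genes Sec13 and Seh1l were at 1.51 and 0.77 and the membrane anchor Ndc1 at 2.23. The contrast thus covers the 19 genes of the symbol rule alone. Expressed per exon length as RPKM, CPM divided by kilobases of merged exons, so that genes can be compared, scaffold genes made up 45.2% to 48.7% of the summed nucleoporin level in Asrij high and 34.2% to 35.5% in Asrij low, with no overlap between the groups. Spread among the 19 genes was narrower in Asrij high, where the highest nucleoporin stood 10.8 to 13.0 times above the lowest in RPKM, against 24.7 to 36.3 times in Asrij low. Nup62 was the highest per length in both groups, at 83.3 RPKM in Asrij high and 38.3 RPKM in Asrij low. Next came Nup210 at 54.2 RPKM in Asrij high and 34.5 RPKM in Asrij low and Nup50 at 52.5 RPKM in Asrij high and 21.2 RPKM in Asrij low. Lowest were Nup37, at 7.15 RPKM in Asrij high and 1.98 RPKM in Asrij low, and Nup35, at 7.16 RPKM in Asrij high and 1.28 RPKM in Asrij low. These group shares are descriptions of the 6 libraries, without a test, and exon lengths come from GENCODE M21, which need not be the annotation that the counts were made with.

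Start-site sequences are shown for 3 members, each holding 2 copies of a searched motif. RefSeq windows of 300 bases on GRCm38.p6, reaching 250 bases before and 50 after the gene start, were at hand for 34 of the 42 members, 33 of them tested. The NRF1 palindrome of 10 letters, bound by the factor NRF1 and seen in capitals in the first 2 windows printed here, stood in the windows of 4 of 33 tested members (12.1%), namely the 3 nucleoporins Nup50, Nup62 and Nup107, of 16 with a window, and Xpo5, and in those of 1.86% of 14110 tested genes with a window. CACGTG, the E-box read by MYC and related factors, stood in 7 of 33 (21.2%), 3 of them nucleoporins, and in 10.4% of tested genes. Both strands were searched. Shares were 54.5% against 41.8% for CCAAT, 72.7% against 58.3% for GGGCGG, 12.1% against 7.21% for CCGGAAGT, 12.1% against 10.2% for TATAAA, 6.06% against 4.04% for GGCGGGAA and 3.03% against 0.680% for TTTCGCGC, given here for members and then for all tested genes. Median GC content was 64.7% in member windows and 58.7% in those of all tested genes. The tested genes set against the members here were not matched to them for level or GC content. A match is only a run of letters, and binding was not measured. The windows of Nup50 (chr15:84923178-84923477 on the plus strand) and Xpo5 (chr17:46202561-46202860 on the plus strand) each hold 2 copies of the NRF1 palindrome, and that of Nup188 (chr2:30286166-30286465 on the plus strand) holds 2 E-boxes. Capitals mark those motifs, and the palindrome is the same run of letters in both genes:
Nup50: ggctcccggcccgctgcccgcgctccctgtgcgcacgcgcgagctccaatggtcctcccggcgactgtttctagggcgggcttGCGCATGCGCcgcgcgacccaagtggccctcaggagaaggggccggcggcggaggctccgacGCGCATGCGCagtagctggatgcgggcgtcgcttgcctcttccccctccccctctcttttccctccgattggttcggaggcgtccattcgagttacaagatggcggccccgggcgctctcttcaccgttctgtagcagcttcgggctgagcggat
Xpo5: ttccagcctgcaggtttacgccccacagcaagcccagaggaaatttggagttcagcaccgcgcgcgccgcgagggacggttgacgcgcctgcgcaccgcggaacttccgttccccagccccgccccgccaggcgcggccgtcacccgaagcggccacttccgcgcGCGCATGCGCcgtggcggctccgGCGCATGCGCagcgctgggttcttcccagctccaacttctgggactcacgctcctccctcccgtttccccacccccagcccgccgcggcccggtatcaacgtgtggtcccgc
Nup188: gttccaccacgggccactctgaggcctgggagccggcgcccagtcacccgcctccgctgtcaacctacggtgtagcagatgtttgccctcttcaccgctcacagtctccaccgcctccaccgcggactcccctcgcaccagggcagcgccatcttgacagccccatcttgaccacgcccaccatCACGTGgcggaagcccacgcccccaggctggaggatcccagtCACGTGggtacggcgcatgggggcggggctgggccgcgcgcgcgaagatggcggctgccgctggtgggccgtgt

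Pore genes outside the symbol rule were called higher as well. Of 10 further pore components listed (Aaas, Ahctf1, Gle1, Ndc1, Pom121, Rae1, Ranbp2, Sec13, Seh1l and Tpr), 10 were called higher and 0 lower, against 21.7% of all genes called higher and 38.0% of those with at least 10 CPM, with a median log2 fold change of 1.38. Ndc1, a membrane anchor of the pore, had 88.0, 72.5 and 86.5 CPM in Asrij high, against 14.9, 18.8 and 19.0 CPM in Asrij low (log2 2.23 ± 0.19, adjusted p = 1.98e-04). Aaas, which partners Ndc1, rose by 1.93 and Ahctf1, which seeds pore assembly on chromatin after mitosis, by 1.63. Ranbp2, the giant protein of the cytoplasmic filaments, rose by 1.54. The table carries the channel gene Nup58 and the cytoplasmic gene Nup42 under the older symbols Nupl1 and Nupl2, which were looked up after values were seen. Nupl1 rose by 1.19 (adjusted p = 0.00341) and Nupl2 by 0.91 (adjusted p = 0.035). The call for Nupl2 was lost under 8 of 15 alternatives, with adjusted p up to 0.154.

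**Figure D2:**
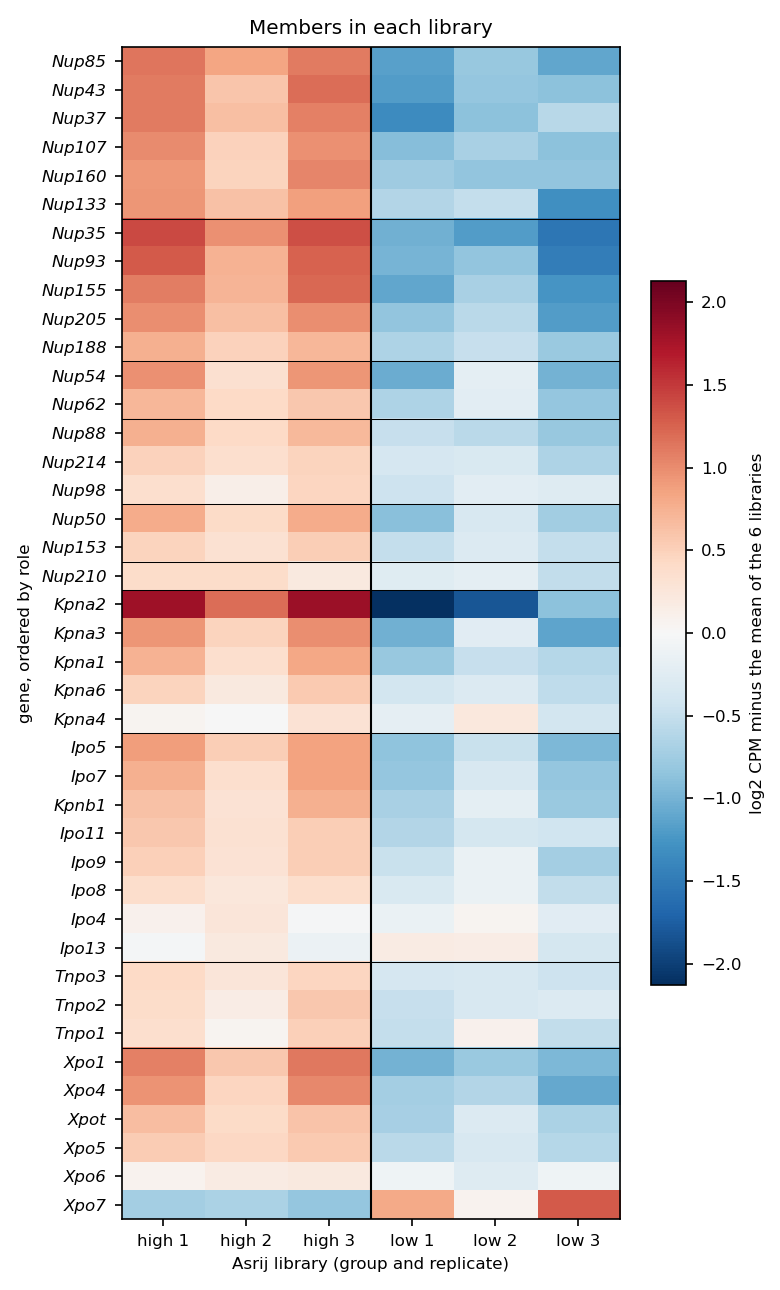
Level of the 41 tested genes in each library (columns, Asrij high left of Asrij low) as log2 CPM minus the mean of the gene over the 6 libraries, in colour, with genes ordered by role. Asrij high replicate 2 is paler than replicates 1 and 3 for most genes, and the row of Xpo7 shows the opposite colours.

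Libraries of one group were not alike. Asrij high replicate 2 was the lowest of its group for 18 of 19 nucleoporins and 18 of 22 tested transport receptors, and also for 9 of 10 cycling markers. Asrij low replicate 2 was the highest of its group for 15 of 19 nucleoporins and 17 of 22 receptors, against 3 of 10 cycling markers. Asrij low replicate 3 held the largest erythroid and stromal marker sums and was the lowest of its group for 11 of the nucleoporins. The same library was the highest of its group for 7 of 10 cycling markers. Such orders were not counted over all genes, so they cannot be read as particular to these lists. With both Asrij high replicate 2 and Asrij low replicate 3 left out, 19 of 19 nucleoporins were still called higher, with 16 receptors higher and 1 lower.

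Transport receptors rose in most cases, with exceptions. Of 22 tested, 17 were called higher (against 21.7% of all genes, and 38.0% of those with at least 10 CPM), 1 was called lower and 4 were not called, with a median log2 fold change of 0.91. Kpna7, an importin alpha gene known from oocytes and early embryos, had 0 counts in all 6 libraries, which allows at most 3 in 299640689 counts and could not be tested. Summed levels of the receptors were 3669 to 4692 CPM in Asrij high and 2062 to 2468 CPM in Asrij low. The nucleoporins had more calls and a larger median than the receptors, and the ratio of nucleoporin to receptor RPKM was 0.845 to 0.907 in Asrij high and 0.747 to 0.818 in Asrij low. The 2 ranges did not overlap but lay close together.

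Importin alpha proteins are the adaptors that read classical nuclear localisation signals and pass the cargo to importin beta. Kpna2 (chromosome 11, 106988629 to 106999525), best known from proliferating cells, showed the largest rise of all members, with 279, 182 and 282 CPM in Asrij high, against 18.3, 22.7 and 43.7 CPM in Asrij low. Means were 248 ± 57.1 CPM in Asrij high, against 28.2 ± 13.6 CPM in Asrij low (SD, n = 3 each), an 8.78-fold difference (log2 3.14 ± 0.34, adjusted p = 3.55e-04), and 0.756% of the 10708 genes with at least 10 CPM had a larger fold change. Asrij low replicate 3 held about as much Kpna2 as both other Asrij low libraries together, and without it the log2 fold change was 3.58, and 3.76 with Asrij high replicate 2 left out as well. A pseudogene copy, Kpna2-ps, could share reads and had 6.66 to 10.4 CPM in Asrij high and 3.60 to 6.60 CPM in Asrij low. Counted together, both came to a 7.68-fold difference of the mean CPM.

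The other importin alpha genes had smaller fold changes. Kpna3 had 124, 90.3 and 129.5 CPM in Asrij high and 32.3, 55.1 and 29.8 CPM in Asrij low (log2 1.55 ± 0.26, adjusted p = 0.00196). Its close paralogue Kpna4 had 101, 96.8 and 120.4 CPM in Asrij high and 84.5, 113 and 73.5 CPM in Asrij low and was not called (log2 0.23 ± 0.19, adjusted p = 0.363). Its sign turned to -0.04 with library totals and -0.03 with upper quartile factors. Kpna1 had 63.5, 49.0 and 67.8 CPM in Asrij high and 21.7, 27.2 and 25.0 CPM in Asrij low. Its paralogue Kpna6 had 111, 92.0 and 117 CPM in Asrij high and 61.1, 65.1 and 54.6 CPM in Asrij low. Both were called higher, with fold changes of 1.29 and 0.82. Groups overlapped for Kpna4. For the other 4 the Asrij high libraries lay above the Asrij low libraries, as they did for 30.2% of all genes tested.

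The importin alpha pool was larger in Asrij high and differed in its makeup. Its sum per exon length was 161, 115 and 167 RPKM in Asrij high and 35.0, 46.2 and 41.4 RPKM in Asrij low. Kpna2 held 60.2, 55.2 and 58.8% in Asrij high and 18.2, 17.1 and 36.7% in Asrij low of that sum. It was the leading importin alpha in all 3 Asrij high libraries and, among the Asrij low libraries, in replicate 3. Kpna4 held 7.01, 9.45 and 8.05% in Asrij high and 27.0, 27.3 and 19.8% in Asrij low. Kpna6 held 10.2, 11.9 and 10.4% in Asrij high and 26.0, 21.0 and 19.6% in Asrij low. Shares of Kpna3 were 17.9, 18.3 and 18.0% in Asrij high and 21.5, 27.8 and 16.8% in Asrij low, and those ranges overlapped. These shares do not depend on library scaling.

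**Figure D3:**
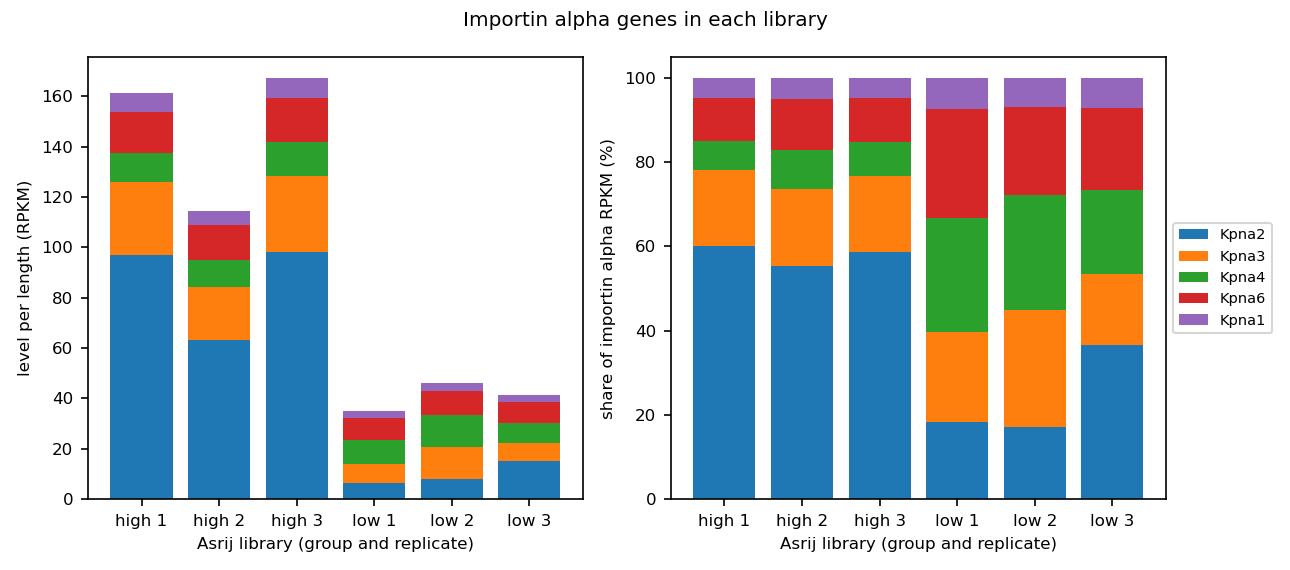
Importin alpha genes in each library (horizontal axis, Asrij high left of Asrij low), stacked as RPKM on the left and as a percentage of the importin alpha sum on the right. Kpna2 fills 55.2% to 60.2% of each Asrij high bar and 17.1% to 36.7% of each Asrij low bar.

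Start-site windows of Kpna2 (chr11:106999476-106999775 on the minus strand) and Kpna4 (chr3:69127043-69127342 on the minus strand) are printed side by side as the members of the family with the largest and the smallest fold change. Each holds the CCAAT box 2 times on either strand, shown in capitals (ATTGG where it lies on the other strand):
Kpna2: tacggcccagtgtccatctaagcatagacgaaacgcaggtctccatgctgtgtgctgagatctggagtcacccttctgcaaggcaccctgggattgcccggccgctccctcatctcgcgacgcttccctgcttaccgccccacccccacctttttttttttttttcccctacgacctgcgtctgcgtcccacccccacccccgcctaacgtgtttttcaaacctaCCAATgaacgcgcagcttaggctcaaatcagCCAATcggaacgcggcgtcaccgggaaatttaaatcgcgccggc
Kpna4: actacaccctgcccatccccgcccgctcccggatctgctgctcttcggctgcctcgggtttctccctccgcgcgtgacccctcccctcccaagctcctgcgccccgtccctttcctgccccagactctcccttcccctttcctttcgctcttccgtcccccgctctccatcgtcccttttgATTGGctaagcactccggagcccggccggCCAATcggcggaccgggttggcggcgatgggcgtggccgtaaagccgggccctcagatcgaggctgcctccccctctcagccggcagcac

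Kpnb1, importin beta, carries importin alpha and its cargo through the pore and also acts in spindle assembly. It was the most abundant member per length as well as by CPM, with 852, 686 and 931 CPM in Asrij high, against 343, 479.6 and 319 CPM in Asrij low (log2 1.11 ± 0.21, adjusted p = 0.00346) or 125 RPKM in Asrij high and 57.8 RPKM in Asrij low. Ipo5, an importer of ribosomal proteins and histones, had 478, 369 and 467 CPM in Asrij high, against 142, 184 and 133 CPM in Asrij low (log2 1.52 ± 0.19, adjusted p = 6.02e-04), the largest rise in the importin beta family. Ipo7, which also imports ribosomal proteins, had 284, 214 and 303 CPM in Asrij high and 94.3, 133 and 95.1 CPM in Asrij low (log2 1.32 ± 0.20, adjusted p = 0.00142). For all 3 genes the Asrij high libraries lay above the Asrij low libraries, as they did for 30.2% of all genes tested.

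Further importins had smaller fold changes or were not called. Ipo9, which carries histones H2A and H2B, had 186, 164 and 189 CPM in Asrij high and 95.1, 120.0 and 80.1 CPM in Asrij low (0.87). Ipo11 had 74.1, 62.5 and 72.0 CPM in Asrij high and 32.4, 38.3 and 37.3 CPM in Asrij low (0.95). A read-through gene, Ipo11-lrrc70, was counted apart at 31.0, 23.9 and 28.3 CPM in Asrij high and 15.7, 25.0 and 23.4 CPM in Asrij low, and reads shared with Ipo11 cannot be told apart. Ipo8, which is related to Ipo7, had 91.4, 83.4 and 91.7 CPM in Asrij high and 56.2, 64.3 and 49.2 CPM in Asrij low (log2 0.65 ± 0.16, adjusted p = 0.0109). Its call was lost with library totals (adjusted p = 0.101), with upper quartile factors (0.0571) and without Asrij high replicate 1 (0.0549) or 3 (0.0514). Ipo4, another histone importer, had 79.7, 89.5 and 73.4 CPM in Asrij high and 67.6, 78.3 and 63.2 CPM in Asrij low and was not called (log2 0.21 ± 0.16, adjusted p = 0.32), with a sign that turned under library totals and upper quartile factors (-0.05 each). Ipo13, which works in both directions, had 30.4, 36.3 and 28.6 CPM in Asrij high and 35.2, 34.9 and 24.1 CPM in Asrij low (log2 0.02 ± 0.22, adjusted p = 0.963), and its sign changed under 8 of 15 alternatives, 4 of them other scalings or DESeq2. Groups overlapped for both.

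Transportins bring RNA-binding proteins into the nucleus. Tnpo2 had 191, 163 and 217 CPM in Asrij high and 103, 115 and 119 CPM in Asrij low (log2 0.76 ± 0.16, adjusted p = 0.00583). Tnpo3, the importer of serine-arginine splicing factors, had 184, 166 and 190.5 CPM in Asrij high and 108, 109 and 102 CPM in Asrij low (log2 0.77 ± 0.14, adjusted p = 0.00336). Tnpo1, which carries hnRNP proteins, had 347, 281 and 386 CPM in Asrij high and 191, 288 and 189 CPM in Asrij low (log2 0.60 ± 0.21, adjusted p = 0.0489). Asrij low replicate 2 lay above Asrij high replicate 2, so the groups overlapped, and the call for Tnpo1 was lost under 11 of 15 alternatives, with adjusted p up to 0.227.

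Exportins divided into 4 that rose, 1 not called and 1 that fell. Xpo1 (chromosome 11, 23255909 to 23297597), the exporter of proteins with leucine-rich export signals, had 306, 217 and 316 CPM in Asrij high, against 72.5, 84.4 and 75.3 CPM in Asrij low (log2 1.85 ± 0.19, adjusted p = 2.93e-04). Xpo4, which exports the translation factor eIF5A, had 141, 100.4 and 148 CPM in Asrij high and 44.1, 47.4 and 34.3 CPM in Asrij low (log2 1.63 ± 0.20, adjusted p = 5.98e-04). Of the RNA exporters, Xpot, which carries tRNA, had 234, 198 and 228 CPM in Asrij high and 92.0, 123 and 94.0 CPM in Asrij low (log2 1.10 ± 0.17, adjusted p = 0.0015). Xpo5, which carries microRNA precursors and whose start-site window with its NRF1 palindromes is printed above, had 137, 129 and 139 CPM in Asrij high and 63.8, 74.5 and 62.2 CPM in Asrij low (log2 1.02 ± 0.15, adjusted p = 0.00116). In these 4 genes no Asrij high library fell into the Asrij low range. Xpo6, the exporter of actin, had 119.7, 129 and 132 CPM in Asrij high and 107, 94.5 and 107 CPM in Asrij low and was not called (log2 0.30 ± 0.15, adjusted p = 0.128), although the groups did not overlap.

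Xpo7 (chromosome 14, 70662126 to 70770864) was the single member called lower in Asrij high, with 68.5, 70.8 and 63.9 CPM in Asrij high, against 197, 119 and 278 CPM in Asrij low (log2 -1.55 ± 0.27, adjusted p = 0.00246). Means were 67.7 ± 3.48 CPM in Asrij high, against 198 ± 79.7 CPM in Asrij low (SD, n = 3 each). The Asrij high libraries lay within 7 CPM of each other, whereas the Asrij low libraries were spread, replicate 3 being highest and replicate 2 lowest. All 3 Asrij high libraries lay below all 3 Asrij low libraries, as they did for 24.8% of all genes tested. Per length, Xpo7 stood at 3.56 RPKM in Asrij high and 10.4 RPKM in Asrij low, Xpo1 at 39.0 RPKM in Asrij high and 10.8 RPKM in Asrij low and Xpot at 36.5 RPKM in Asrij high and 17.0 RPKM in Asrij low. Xpo7 was the lowest of the 6 exportins in Asrij high and the third, close to Xpo1, in Asrij low. The call held under all 15 alternatives, with log2 fold changes of -1.84 to -1.25 and -1.25 without Asrij low replicate 3. Xpo7 is known from mouse erythroblasts, where it is abundant and is needed for the nucleus to condense before it is expelled.

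The globin genes and Alas2 moved in the same direction as Xpo7 and in the same order within Asrij low. The globin gene Hba-a1 had 1557, 847 and 1724 CPM in Asrij high and 7582, 3024 and 23659 CPM in Asrij low. Alas2, the erythroid enzyme of haem synthesis, had 41.9, 24.0 and 47.8 CPM in Asrij high and 210.0, 86.1 and 667 CPM in Asrij low. Over the 9 erythroid markers, summed levels were 3870.2 to 6687 CPM in Asrij high and 8219 to 57975 CPM in Asrij low, with replicate 3 highest and replicate 2 lowest in Asrij low. Of these 9, 4 were called higher and 4 lower in Asrij high. Of all genes tested 21.7% were called higher and 17.7% lower, and of those with at least 10 CPM 38.0% and 18.2%. None of the 9 markers was at 0 in any library. The 4 called higher were Klf1, Epor, Car1 and Tfrc, and the 4 called lower were Alas2, Hba-a1, Hbb-bt and Hbb-bs. Klf1, a transcription factor of erythroid cells, had 181, 153 and 140.4 CPM in Asrij high and 51.3, 30.4 and 36.3 CPM in Asrij low. Within Asrij high, Xpo7 did not follow the globin order, replicate 2 being highest for Xpo7 and lowest for Hba-a1. The same order in Asrij low was seen in other marker sums. Of these, the stromal and macrophage sums were also lower in Asrij high, and the myeloid granule sum was higher. The 7 stromal markers summed to 23.0, 75.3 and 36.2 CPM in Asrij high and 321, 236 and 758 CPM in Asrij low. The 6 macrophage markers summed to 42.3, 35.6 and 31.3 CPM in Asrij high and 66.6, 60.1 and 184 CPM in Asrij low. The 8 myeloid granule markers summed to 3487, 3690.3 and 4020.1 CPM in Asrij high and 1429, 479 and 1948 CPM in Asrij low, again with that order in Asrij low. The order was thus not particular to red cell genes. The part of any of these cell types in the level of Xpo7 was not tested.

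**Figure D4:**
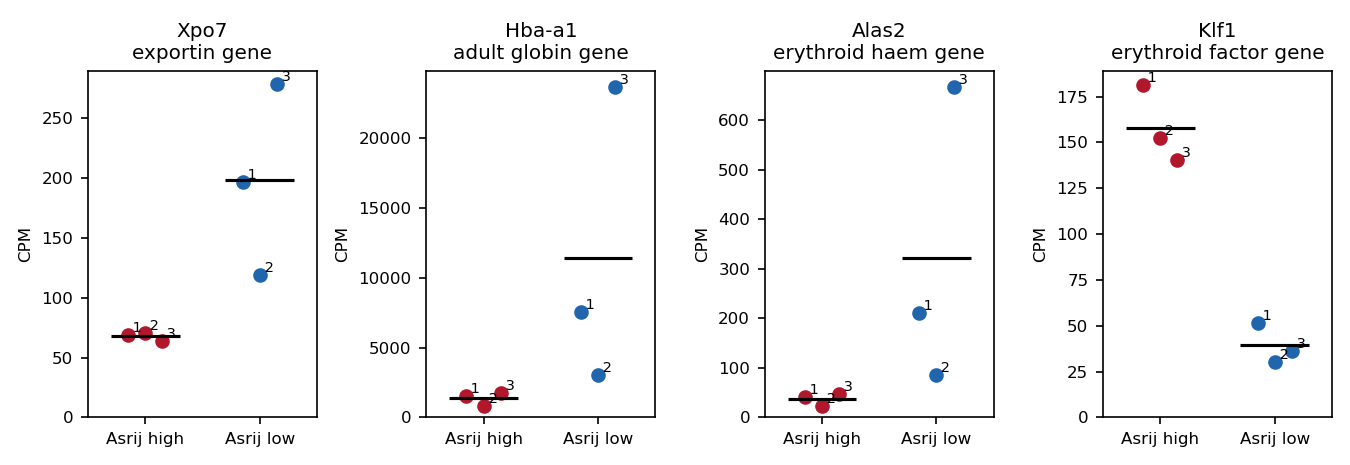
CPM of Xpo7 beside 2 red cell genes, Hba-a1 and Alas2, and the erythroid factor gene Klf1, in each library (points, numbered by replicate; horizontal lines are group means, Asrij high left of Asrij low). In Asrij low the order of replicates 3, 1 and 2 from high to low is shared by Xpo7, Hba-a1 and Alas2, and Klf1 is higher in Asrij high.

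Closely related pairs were set against each other within each library, which removes the scaling. The log2 ratio of Kpna3 to Kpna4 in CPM was 0.10 ± 0.20 in Asrij high and -1.24 ± 0.19 in Asrij low, a difference of 1.34. For Ipo7 over Ipo8 it was 1.57 ± 0.19 in Asrij high and 0.91 ± 0.15 in Asrij low, for Kpna1 over Kpna6 -0.83 ± 0.07 in Asrij high and -1.29 ± 0.18 in Asrij low, and for Nup205 over Nup188 -0.03 ± 0.08 in Asrij high and -0.48 ± 0.16 in Asrij low (SD, n = 3 each). In these 4 pairs the groups did not overlap, each with p = 0.1 in a 2-sided exact permutation test, the smallest value that 3 against 3 libraries allow, and adjusted p = 0.125 over the 5 pairs compared. Tnpo1 over Tnpo2 was 0.82 ± 0.04 in Asrij high and 0.96 ± 0.33 in Asrij low, and those values overlapped (exact permutation p = 0.7). The pairs were chosen as related genes with their values already known.

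The Ran cycle gives transport its direction. Of 8 genes listed, 7 were called higher and 0 lower, where 21.7% of all genes tested and 38.0% of those with at least 10 CPM were called higher, with a median of 2.01. Ran itself had 533, 382 and 519 CPM in Asrij high, against 104, 129.7 and 98.6 CPM in Asrij low (log2 2.11 ± 0.20, adjusted p = 2.21e-04). Rcc1, the exchange factor that loads Ran with GTP on chromatin, had 174, 137 and 163 CPM in Asrij high and 37.3, 43.0 and 38.6 CPM in Asrij low. Rangap1, which triggers hydrolysis at the cytoplasmic face, rose by 2.02. Rangrf, which binds Ran, rose by 2.03. Ranbp3l, a low gene, was at -2.34 and not called (adjusted p = 0.0529). Among 4 receptors outside the symbol rule, Cse1l, which returns importin alpha to the cytoplasm, had 172, 114 and 191 CPM in Asrij high, against 40.7, 63.7 and 43.5 CPM in Asrij low (log2 1.69 ± 0.25, adjusted p = 0.00109), and Ranbp6, Ranbp17 and Snupn were not called, with fold changes of 0.47, 0.26 and 0.25.

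Genes of messenger RNA export were called higher in 17 of 24 cases and lower in 0, against 21.7% of all genes called higher, or 38.0% of those with at least 10 CPM, with a median of 0.83. With library totals as scaling 11 of the 24 were called higher, against 15.2% of all genes. Alyref, an adaptor that loads the export receptor onto messenger RNA, had 574, 351 and 584 CPM in Asrij high, against 73.6, 128 and 106 CPM in Asrij low (log2 2.29 ± 0.27, adjusted p = 4.54e-04). The helicase gene Ddx39a rose by 1.63, Thoc1 of the THO complex by 1.44 and Ddx19a, a helicase of the cytoplasmic face, by 1.16. The member below 0 was Alyref2 (-0.64, not called). Of 17 genes of the nuclear lamina and envelope, 10 were called higher and 1 lower, against the same 21.7% and 38.0% called higher, with a median of 0.63. Without Asrij high replicate 1, 6 of them were called higher, against 13.7% of all genes, and without Asrij high replicate 3 also 6, against 14.5%. Lmnb1, a B-type lamin, had 490.3, 423 and 482 CPM in Asrij high, against 131, 194 and 157 CPM in Asrij low (log2 1.53 ± 0.19, adjusted p = 5.33e-04), with Lmnb2 at 1.11, the chromatin tether gene Banf1 at 1.58 and the lamina-associated Tmpo at 1.42. Syne3, a nesprin of the outer nuclear membrane, was the member called lower, with 80.7, 108 and 81.0 CPM in Asrij high and 177, 178 and 142 CPM in Asrij low (log2 -0.88 ± 0.18, adjusted p = 0.00466). In all, 5 of the 17 genes had a fold change below 0, Syne3 among them.

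Scaling bears on all of these sizes. Over all genes the median log2 fold change was -0.02 with TMM, -0.29 with library totals and -0.30 with upper quartile factors, and the share of higher genes among called genes was 55.1% with TMM, 40.2% with library totals and 39.9% with upper quartile factors. Relative to the median of all genes, the nucleoporin median was 1.61 with TMM and 1.62 with upper quartile factors, and the receptor median was 0.93 and 0.94. A change of scaling moves all fold changes by nearly the same amount, so these differences could hardly change and are no check. Exons of several members overlap other genes, and the strand setting of the counts is not given in the sources used here. Fam78a shares 177 bases with the 9659 exon bases of Nup214, Rabep1 shares 48 with Nup88, Dusp19 shares 131 with Nup35, Irf5 shares 411 with the 13100 of Tnpo3 and A230103J11Rik shares 666 with the 6285 of Tnpo2, and reads in those stretches cannot be told apart.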

How the data were processed

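RNA was isolated from sorted cells with a column kit, ribosomal RNA was depleted and directional libraries were made, per the labels' protocols; the molecule field names polyA RNA instead. The values the authors deposited are raw counts, 1 whole number for each gene and library. The tools named in the submitters' processing notes are FastQC, HISAT2, SAMtools and Subread, and the build is mm10; for versions, annotation and counting options, nothing was found in the sources used here.

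The counts were analysed in R 4.3.3 with the quasi-likelihood test of edgeR 4.0.16 (TMM factors, robust dispersion, group as the only term) on the 21445 of 49997 genes kept by filterByExpr (minimum count 10, minimum total 15), with Benjamini-Hochberg adjustment over those genes. SEs were derived from the test statistic. Alternatives were other scalings and filters, DESeq2 1.42.0, limma-voom (limma 3.58.1), a replicate block and each library left out. The pipeline was run on simulated counts with far fewer changed genes than were called here, so this did not test the scaling. Members, pathway lists and markers were chosen with earlier results of these data known; every member is named, with up to 4 genes a list by smallest p, plus any called against it. RPKM used merged exon lengths of GENCODE M21 (GRCm38). One stem cell marker is not reported here. The floor given for Kpna7 covers counting error only, while SEs and SDs also hold spread among libraries. Drawing used Python 3.11.15 and matplotlib 3.10.9.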

Additional observations from a re-analysis of the deposited data

How the results depend on the processing

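Directions and calls of 34 of the 41 tested members were the same under all 15 alternatives. Of 615 gene-by-alternative values, 581 kept direction and call, 22 lost the call and 12 changed sign, all 12 in Kpna4, Ipo4 and Ipo13, which were not called. Kpna4 was at -0.0354 with library totals and -0.0281 with upper quartile factors, and Ipo4 at -0.0508 and -0.0537. Ipo13 was at -0.0337 with relative log expression factors, -0.0342 with DESeq2, -0.26 with library totals, -0.25 with upper quartile factors, -0.10 with a filter of 1 CPM in 3 libraries, -0.167 to 0.140 with 1 library left out (below 0 without Asrij high replicate 2 or Asrij low replicate 3) and -0.27 without both, the last setting being chosen after seeing the data. The cause was not tested.

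The nucleoporin median was 1.31 with library totals and 1.32 with upper quartile factors, and ran from 1.37 to 1.76 with 1 library left out. For receptors it was 0.64 in both scalings, 0.79 with the 1 CPM filter and 0.83 to 1.05 with 1 library left out. Leaving out 1 library gave 5481 to 8935 called genes, 2346 to 3752 of them lower (3925 without Asrij high replicate 2 and Asrij low replicate 3), 17 to 19 nucleoporins higher and 15 to 17 receptors higher; the smallest count of calls came without Asrij high replicate 1. DESeq2 called 19 nucleoporins and 16 receptors higher, limma-voom 19 and 17.

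Same-numbered libraries had deviations from their group means correlated at 0.01, 0.05 and 0.22, so the numbers were not taken as pairs. With the replicate block, 8088 genes, 19 nucleoporins and 17 receptors were called, against 8452, 19 and 18 without it. Depth sets the limit for Kpna7, and 3 libraries a group are too few to test a single library as an outlier.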
